A study of Mus musculus with 6 samples.

Results

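Fatty acid uptake and acyl-CoA activation were followed through 10 genes, each listed once among the 24589 gene symbols of a TPM table (a transcript level per length, with every library brought to an equal total). They were taken by symbol and cover importers (Cd36, Slc27a1, Slc27a4), a fatty acid binding protein (Fabp5), long-chain acyl-CoA synthetases (Acsl1, Acsl3, Acsl4, Acsl5, Acsl6) and a lipase inhibitor (Angptl4). The libraries came from primary wild-type (WT) mouse CD8+ T cells, cultured in Click's medium with fetal bovine serum and activated with antibodies to CD3 and CD28. Cells then received 20 µM trans-vaccenic acid (TVA, a long-chain trans fatty acid of ruminant fat) or DMSO, its solvent, for 24 h, with 3 libraries per group. All 6 libraries shared the activation, medium and genotype. The labels give no strain or age. Per the study's methods, T cells came from spleen and lymph nodes of young adult C57BL/6 mice and were purified with magnetic beads before culture. Nothing in the labels says that libraries of a group came from separate mice, so p-values measure the spread between these libraries, which may be technical.

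Long-chain fatty acids enter cells with the help of the scavenger receptor CD36 and of the fatty acid transport proteins encoded by the Slc27a family, and are carried in the cytosol by fatty acid binding proteins. Acyl-CoA synthetases of the ACSL family then join them to coenzyme A, which keeps them in the cell and makes them available for membrane lipids, lipid droplets or mitochondrial oxidation. Outside the cell, lipoprotein lipase frees fatty acids from triglycerides, and ANGPTL4 inhibits it. Activated CD8 T cells grow and divide quickly and build new membrane, for which they need activated fatty acids.

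The libraries resembled each other closely, with Pearson correlations of log2(TPM + 1) across the genes tested of 0.989 to 0.999 (genes are not independent replicates). The summed TPM of 5 CD8 T cell markers (Cd3d, Cd3e, Cd3g, Cd8a, Cd8b1) was 1516 to 1638 with DMSO and 1756 to 1787 with TVA, so the defining markers of the labelled cell type were abundant in each library. Of the 5, Cd3g was called higher with TVA. The files give no counts, so the depth of the libraries is unknown. Groups were compared with limma on log2(TPM + 1) over the 10866 genes that reached 1 TPM in at least 3 libraries, and a gene was called at a Benjamini-Hochberg adjusted p under 0.05. Calls were also made without each library in turn.

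TVA raised 3 of the 10 genes and lowered 1, and the change was largest at genes of low level. Cd36 rose 2.24-fold in mean TPM, Acsl3 1.65-fold and Acsl1 1.28-fold, while Acsl6 fell to 0.545 of its DMSO level. The abundant genes Acsl5, Fabp5 and Acsl4 were 1.13-, 1.11- and 1.11-fold higher in mean TPM, which did not pass the threshold. Slc27a1, Slc27a4 and Angptl4 did not pass it either. All 10 genes reached the filter, 9 of them in all 6 libraries and Cd36 in 5.

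Among all genes tested, 5.28% were called higher with TVA, 3.23% lower and 8.51% in either direction. Every TVA library was above every DMSO library for 6 of the 10 genes (27.3% of all genes tested) and below for 1 (11.2% of all genes tested). The median log2 change of the 10 genes was 0.15, against 0.04 over all genes tested. The balance of calls over all genes depended on scaling, with 574 higher and 351 lower in the deposited TPM, 292 higher and 462 lower after median-of-ratios scaling, 357 higher and 418 lower after quantile normalization, and 590 higher and 534 lower after a correction for GC content. For the 10 genes it was 3 higher and 1 lower under each of these. Over the genes tested, log2 change and transcript GC content correlated at a Spearman rho of -0.40 (across genes, which are not replicates), and Cd36, Acsl1, Acsl3 and Acsl6 were each still called after the GC correction. The count of the 10 called was 7 without DMSO replicate 2 and 2 without any single TVA library, where the count over all 10866 genes moved as well, from 925 to 2242 and to between 102 and 125.

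**Figure D1:**
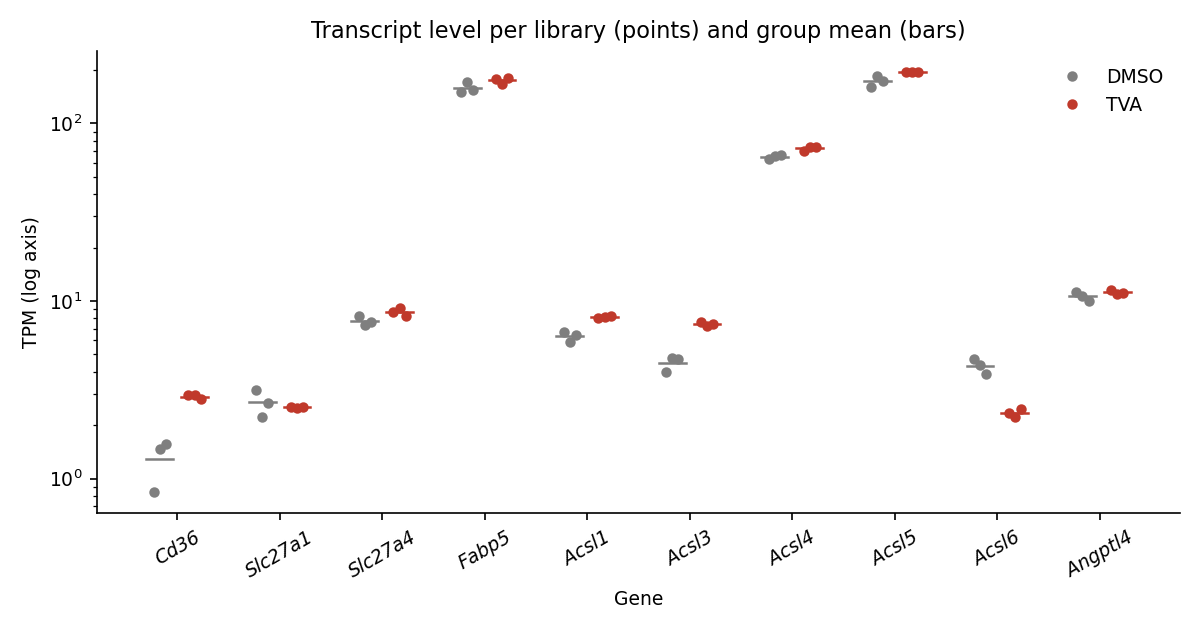
TPM of the 10 genes on a log axis, with a point for each of 3 DMSO (grey) and 3 TVA (red) libraries and a bar at the group mean. Every TVA library lies above every DMSO library for Cd36, Slc27a4, Acsl1, Acsl3, Acsl4 and Acsl5, and below for Acsl6. Fabp5 and Acsl5 are the most abundant members in both groups.

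**Figure D2:**
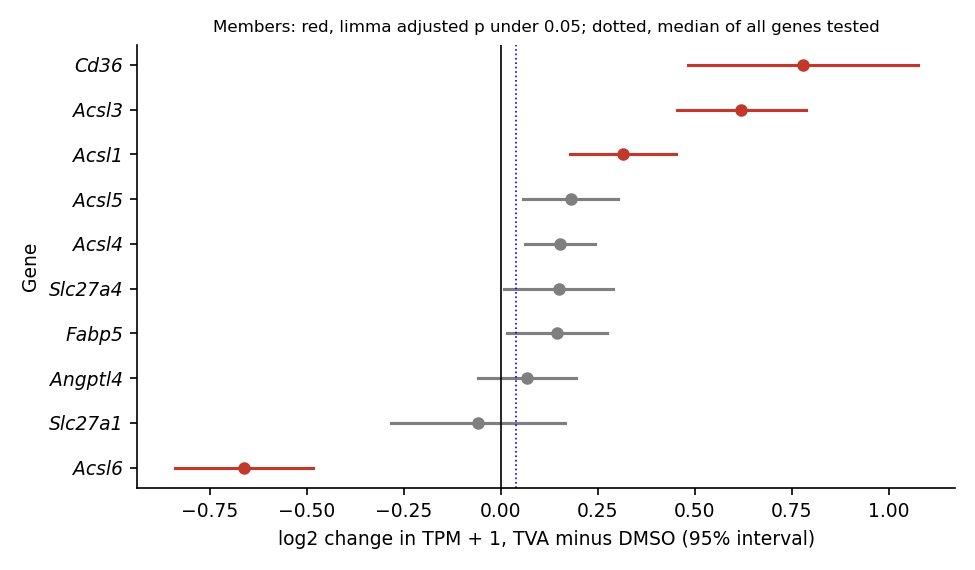
Fitted change of each gene on the log2(TPM + 1) scale, TVA minus DMSO, with its 95% interval from limma. Red marks the 4 genes with an adjusted p under 0.05, and the dotted line is the median of all genes tested (0.04).

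Cd36, on mouse chromosome 5 (GRCm38.p6, 17781690 to 17888959), encodes the scavenger receptor that helps long-chain fatty acids across the plasma membrane. Its level was 0.84, 1.47 and 1.57 TPM in the DMSO libraries, in replicate order, and 2.94, 2.95 and 2.79 TPM in the TVA libraries. The groups did not overlap, and the lowest TVA value was well above the highest DMSO value. The fitted log2 change was 0.78 (SE 0.13, 95% interval 0.48 to 1.07, limma adjusted p 0.0166). On the log2(TPM + 1) scale the change of a gene near 1 TPM is understated, and with a pseudocount of 0.1 it was 1.15. The call was lost without TVA replicate 1, 2 or 3 (limma adjusted p 0.0772, 0.0890 and 0.0778). In bulk libraries a change in the number of cells of a type and a change in RNA per cell cannot be told apart. Myeloid cells also express Cd36, and the bead purification is meant to remove them. The summed TPM of 8 myeloid markers moved the same way as Cd36 (41.1 to 45.1 with DMSO, 54.8 to 56.5 with TVA). Most of that sum was Lyz2 (means of 30.3 TPM with DMSO and 39.7 TPM with TVA).

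Slc27a4 (FATP4) encodes a transport protein that also has acyl-CoA synthetase activity. Its levels were 8.22, 7.34 and 7.60 TPM in the DMSO libraries and 8.66, 9.08 and 8.26 TPM with TVA. Every TVA library was above every DMSO library, though narrowly (8.26 against 8.22 TPM), and the log2 change of 0.15 (SE 0.060, limma adjusted p 0.139) was not called. Slc27a1 (FATP1), another member of the family, had 3.17, 2.23 and 2.68 TPM in the DMSO libraries and 2.53, 2.51 and 2.54 TPM with TVA. The DMSO values enclosed the TVA values, and the log2 change was -0.06 (95% interval -0.28 to 0.17, limma adjusted p 0.699). The sign was not stable, with log2 changes of 0.0498 after the GC correction, 0.0327 without DMSO replicate 1 and -0.152 without DMSO replicate 2.

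Fabp5 encodes the epidermal-type fatty acid binding protein, a cytosolic carrier. It was at 150, 170 and 155 TPM in DMSO replicates 1, 2 and 3 and at 178, 167 and 180 TPM with TVA. DMSO replicate 2 exceeded TVA replicate 2, so the groups overlapped. The log2 change was 0.15 (SE 0.055, 95% interval 0.02 to 0.27, limma adjusted p 0.123), and it was called only without DMSO replicate 2 (log2 change 0.20, limma adjusted p 0.0226). After the GC correction the log2 change of Fabp5 was 0.09 (limma adjusted p 0.275), the lowest of its alternatives. Fabp5 made up 99.6% to 99.8% of the summed TPM of the Fabp genes in each library. Fabp1, Fabp2, Fabp6, Fabp7, Fabp9 and Fabp12 were listed at 0 in all 6 libraries, and Fabp3 and Fabp4 stayed at or below 0.60 TPM. Processed copies of Fabp5 exist in the mouse genome, and reads shared with them could have been split in quantification.

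The 5 long-chain acyl-CoA synthetase genes did not change alike. Acsl3 and Acsl6 moved in opposite directions past the threshold, Acsl1 rose less, and the changes of the more abundant Acsl4 and Acsl5 were not called. Over all 5 genes, 2 were higher, 1 lower and 2 not called, beside 5.28% higher and 3.23% lower among all genes tested.

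Acsl3, on chromosome 1 (GRCm38.p6, 78657825 to 78707743), encodes a synthetase of the endoplasmic reticulum and lipid droplets. It had 3.99, 4.79 and 4.73 TPM in the DMSO libraries and 7.65, 7.20 and 7.47 TPM with TVA. The gap between the groups was wider than the range within either. Its log2 change was 0.62 (SE 0.072, 95% interval 0.45 to 0.79, limma adjusted p 0.00517). Acsl3 was called higher in each of the 13 alternative fits that included it, with log2 changes of 0.54 to 0.72 and limma adjusted p-values of 0.00211 to 0.0398.

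Acsl6, on chromosome 11 (GRCm38.p6, 54303805 to 54364756), encodes a synthetase best known from brain, where it handles polyunsaturated fatty acids. It fell from 4.69, 4.35 and 3.86 TPM with DMSO to 2.33, 2.23 and 2.47 TPM with TVA. The highest TVA value was well below the lowest DMSO value. The log2 change was -0.66 (SE 0.077, 95% interval -0.84 to -0.48, limma adjusted p 0.00525), and Acsl6 was called lower in each of the 13 alternative fits that included it (limma adjusted p 0.00214 to 0.0405).

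Acsl1, on chromosome 8 (GRCm38.p6, 46471037 to 46536051), encodes the synthetase that in liver, heart and fat serves oxidation and triglyceride synthesis. Its values were 6.71, 5.87 and 6.45 TPM in the DMSO libraries and 8.0, 8.17 and 8.20 TPM with TVA, with no overlap. The log2 change was 0.31 (SE 0.059, 95% interval 0.18 to 0.45, limma adjusted p 0.0238). This call was lost in 6 of 13 alternative fits. Among them were the fits without DMSO replicate 3 (limma adjusted p 0.0607), without TVA replicate 1, 2 or 3 (0.0857, 0.117 and 0.115), and with every gene above 0 TPM in the test (0.0574).

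Acsl5, which encodes a mitochondrial and endoplasmic reticulum synthetase, was the most abundant of the 10 genes. Its levels were 160, 185 and 173 TPM in the DMSO libraries (replicates 1, 2 and 3), against 195.3, 195.5 and 194.97 TPM with TVA. The TVA libraries lay within 1 TPM of each other, and the DMSO libraries were spread widely below them. Its log2 change was 0.18 (SE 0.053, 95% interval 0.06 to 0.30, limma adjusted p 0.0701). Acsl4, on the X chromosome, encodes a synthetase that prefers arachidonate and other polyunsaturated fatty acids. Its levels were 63.3, 65.5 and 66.4 TPM in the DMSO libraries and 70.4, 73.4 and 73.4 TPM with TVA, without overlap, and its log2 change of 0.15 (SE 0.038, 95% interval 0.06 to 0.24) just missed the threshold (limma adjusted p 0.0512). Without DMSO replicate 2 both were called higher, Acsl5 at a limma adjusted p of 0.0128 and Acsl4 at 0.0428. After the GC correction the log2 change of Acsl4 was 0.05 (limma adjusted p 0.237), the lowest of its alternatives.

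The summed TPM of the 5 Acsl genes was 239, 265 and 255 with DMSO and 284, 287 and 287 with TVA. The sum was 1.13-fold higher with TVA, a difference of 32.8 TPM. Acsl5 accounted for 69.2% of that difference and Acsl4 for 22.4%, so the genes that passed the threshold contributed little to it. Acsl5 held 68.2% ± 1.31 (SD, n = 3) of the sum with DMSO and 68.4% ± 0.422 (SD, n = 3) with TVA, and the ranges overlapped. Acsl4 held 25.8% ± 0.946 and 25.4% ± 0.470, again with overlap.

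The shares of the minor synthetases moved within this total. The share of Acsl3 was 1.67% to 1.86% with DMSO and 2.51% to 2.70% with TVA, and that of Acsl6 was 1.52% to 1.96% with DMSO and 0.778% to 0.862% with TVA. The ratio of Acsl3 to Acsl6 TPM was 0.851, 1.10 and 1.23 in the DMSO libraries and 3.28, 3.23 and 3.02 in the TVA libraries. These transcripts were thus about equally abundant with DMSO, while Acsl3 was the more abundant in each TVA library. The share of Acsl1 was 2.22% to 2.81% with DMSO and 2.82% to 2.86% with TVA. With 3 libraries per group an exact two-sided permutation test cannot give a p below 0.1, so the shares are given as a description with no test.

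**Figure D3:**
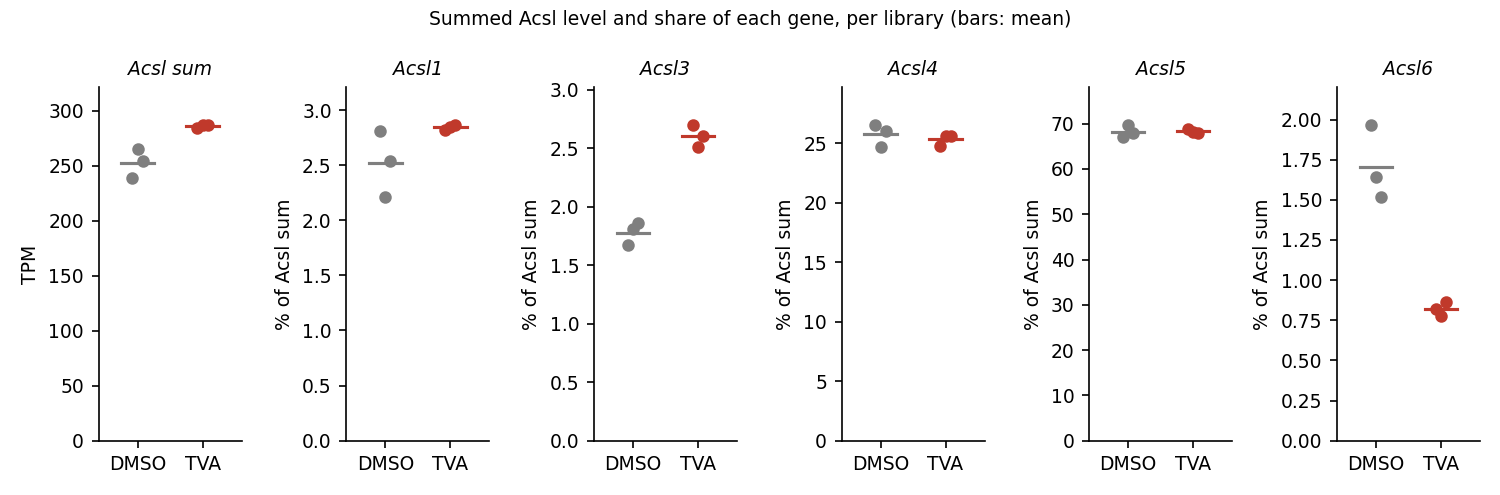
Summed TPM of the 5 Acsl genes (left panel) and the percentage of that sum held by each gene, with a point per library and a bar at the group mean (3 DMSO libraries in grey, 3 TVA libraries in red). Each axis starts at 0 and has its own scale, and the groups separate most clearly for Acsl3 (means of 1.78% and 2.61%) and Acsl6 (means of 1.71% and 0.820%).

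Angptl4 encodes a secreted inhibitor of lipoprotein lipase and is a well known target of PPAR receptors in other tissues. It had 11.2, 10.7 and 10.0 TPM in the DMSO libraries and 11.5, 10.9 and 11.2 TPM with TVA. The groups overlapped, and the log2 change was 0.07 (SE 0.054, 95% interval -0.06 to 0.19, limma adjusted p 0.414). It was called in none of the 14 alternative fits, with log2 changes of 0.03 to 0.10. Lpl, the gene of the lipase itself and no member of the 10, rose from 1.38, 1.6 and 1.5 TPM with DMSO to 4.68, 4.51 and 4.18 TPM with TVA. Its mean was 2.98-fold higher, without overlap (log2 change 1.13, SE 0.070, limma adjusted p 5.0e-04), and it was called in each of the 13 alternative fits that included it. Gpihbp1, whose product anchors the lipase to capillary endothelium, was listed at 0 in all libraries.

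In order of mean TPM with DMSO the genes ran Acsl5, Fabp5, Acsl4, Angptl4, Slc27a4, Acsl1, Acsl3, Acsl6, Slc27a1 and Cd36. The ranges of Acsl5 and Fabp5 overlapped, as did those of Acsl3 and Acsl6, and the other neighbours in this order were apart in every library. With TVA the first 7 places were the same and no neighbours overlapped. The last places were taken by Cd36 (2.79 to 2.95 TPM), Slc27a1 (2.51 to 2.54 TPM) and Acsl6 (2.23 to 2.47 TPM), so that Cd36 moved up from the lowest place and Acsl6 down to it. The spread on the log2(TPM + 1) scale was wider among DMSO than among TVA libraries for 9 of the 10 genes and for 74.4% of all genes tested.

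RefSeq start sites of GRCm38.p6, the assembly release that corresponds to the mm10 build named in the submitters' processing notes, were matched by symbol for 8 of the 10 genes, with 13 promoter windows in all. The 250 bases before a start are printed for Cd36, Acsl3 and Acsl6, the members with the largest changes, since these genes moved with TVA and their windows differ in base composition. The windows are chr5:17835897-17836146 on the minus strand for Cd36, chr1:78657575-78657824 on the plus strand for Acsl3 and chr11:54303574-54303823 on the plus strand for Acsl6, which has 3 windows. Each reads 5′ to 3′ towards the start, with matches to AGGTCA, the core motif of nuclear receptors such as PPARs, on either strand in capitals (TGACCT is its reverse complement).
Cd36: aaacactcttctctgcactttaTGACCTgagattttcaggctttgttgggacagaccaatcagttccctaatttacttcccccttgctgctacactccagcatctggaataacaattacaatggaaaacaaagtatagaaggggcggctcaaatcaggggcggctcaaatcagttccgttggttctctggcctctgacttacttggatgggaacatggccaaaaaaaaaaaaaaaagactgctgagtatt
Acsl3: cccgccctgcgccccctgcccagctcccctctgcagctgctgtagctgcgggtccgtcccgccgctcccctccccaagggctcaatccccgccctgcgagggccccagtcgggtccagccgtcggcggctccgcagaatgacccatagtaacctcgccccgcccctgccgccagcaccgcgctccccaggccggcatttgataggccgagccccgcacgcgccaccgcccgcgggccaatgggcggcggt
Acsl6: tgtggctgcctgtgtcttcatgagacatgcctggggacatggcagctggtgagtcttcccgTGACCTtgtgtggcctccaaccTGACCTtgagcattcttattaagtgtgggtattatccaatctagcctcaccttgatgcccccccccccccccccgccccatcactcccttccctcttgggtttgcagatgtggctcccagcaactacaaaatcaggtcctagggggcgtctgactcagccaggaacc

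The Cd36 window has 43.2% G and C and holds AGGTCA once, starting 228 bases before the start site. That start, at base 17835896, lies inside the gene's coordinates (17781690 to 17888959, minus strand) and not at their 5′ end. The window therefore describes an internal start of Cd36 only. The Acsl3 window has 75.6% G and C and holds none, and this Acsl6 window (57.2%) holds the motif at 189 and 167 bases before the start. It belongs to the most 5′ of the Acsl6 starts. The other Acsl6 windows hold no AGGTCA, so the matches describe the printed Acsl6 window only. Over the 13 windows, 2 held AGGTCA, against 14.0% of all 32851 RefSeq windows of the same length. TGACG, the core of the cAMP response element that CREB binds, was in 1 of the 13 windows, that of Acsl4 at 119 bases before the start, and in 17.8% of all windows. It is contained in the full element TGACGTCA, which was in none of the 13 windows and in 1.55% of all windows. The direct repeat of AGGTCA with 1 base between (DR1, the PPAR response element) was in none of the 13 and in 0.0335% of all windows. Motifs were searched on both strands, and matches describe these letters only.

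Other genes of the pathway were read from a list of 54, of which 27 reached the filter and 14 were listed at 0 in every library. Of the 27, 4 were called higher with TVA, 1 lower and 22 neither, beside the 8.51% called among all genes tested. Their median log2 change was 0.07, against 0.04 over all genes tested. Beside Lpl, the genes called higher were Dbi, Acss2 and Acot13, and the gene called lower was Acsbg1. With median-of-ratios or quantile scaling only 1 higher (Lpl) and 1 lower call (Acsbg1) were left of the 27. Without any single TVA library the count was 1 (Lpl), without DMSO replicate 2 it was 8, and without DMSO replicate 3 it was 3. Over all genes tested these fits called 102 to 125, 2242 and 294 of 10866.

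Dbi encodes the acyl-CoA binding protein, which carries the product of the synthetases in the cytosol. It rose from 218, 222 and 241 TPM with DMSO to 259, 261 and 259 TPM in the TVA libraries (a log2 change of 0.20 with an SE of 0.045, limma adjusted p 0.0439). The groups did not overlap. The call was lost in 10 of 14 alternative fits, with limma adjusted p-values of 0.0308 to 0.173 over all 14, among them median-of-ratios scaling (0.105) and the fit without DMSO replicate 1 (0.0509). Of the other acyl-CoA binding domain genes tested, Acbd3, Acbd4, Acbd5 and Acbd6, none was called.

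Acss2, which encodes the cytosolic synthetase of acetyl-CoA, had 6.21, 6.48 and 5.86 TPM in the DMSO libraries and 7.68, 7.67 and 7.17 TPM in the TVA libraries (a log2 change of 0.24 with an SE of 0.058, limma adjusted p 0.0444). Acsbg1, a synthetase gene of the bubblegum family, fell from 4.0, 3.71 and 3.78 TPM to 2.90, 2.94 and 2.64 TPM (log2 change -0.34, SE 0.064, limma adjusted p 0.0252). Neither pair of groups overlapped. The Acss2 call was lost in 9 of 13 alternative fits and the Acsbg1 call in 6 of 13, including the fits without any single TVA library. Acss1, Acsf2 and Acsf3 were tested and not called (limma adjusted p 0.209 to 0.469), and the medium-chain Acsm genes did not exceed 0.02 TPM.

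Acot13, a thioesterase gene whose product releases fatty acids from acyl-CoA, rose from 32.9, 31.3 and 36.6 TPM with DMSO to 42.8, 40.8 and 39.7 TPM in the TVA libraries (a log2 change of 0.29 with an SE of 0.063, limma adjusted p 0.0371). The groups did not overlap, and the call was lost in 8 of 14 alternative fits. The other 7 thioesterase genes tested were not called. Of the genes of membrane transport and CD36 handling, 6 were tested and none was called. They include Zdhhc4 and Zdhhc5, which encode palmitoyltransferases that act on CD36. Zdhhc5 had 53.6, 52.6 and 53.3 TPM in the DMSO libraries and 57.9, 57.1 and 57.5 TPM with TVA, without overlap (log2 change 0.11, SE 0.034, limma adjusted p 0.0766). Got2, whose product also occurs at the plasma membrane as a fatty acid binding protein, was at 167 to 187 TPM in the DMSO libraries and 178 to 185 TPM with TVA (limma adjusted p 0.664).

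**Figure D4:**
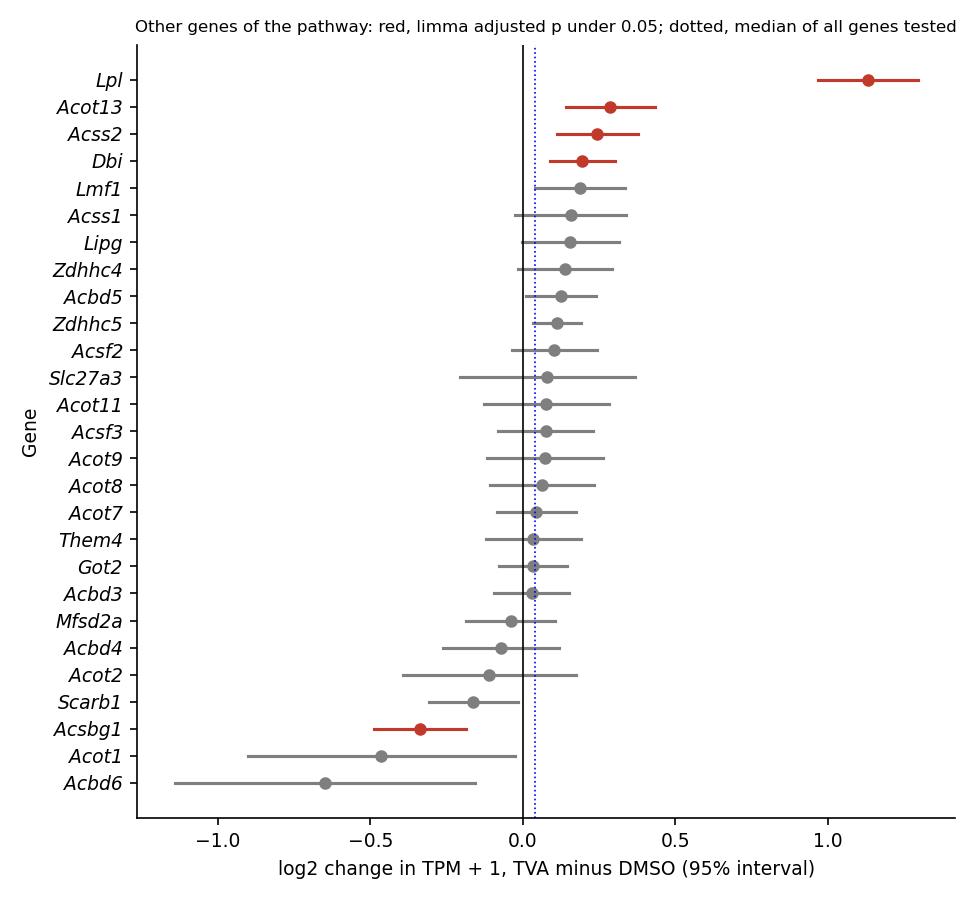
Fitted change on the log2(TPM + 1) scale, TVA minus DMSO, with 95% limma intervals for the 27 tested genes of the wider pathway list. Lpl stands apart at 1.13, the other called genes (red) lie between -0.34 and 0.29, and the dotted line is the median of all genes tested (0.04).

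Cd36 and Lpl are also expressed by macrophages, and Cd36 by platelets, adipocytes and endothelial cells. Of the 8 myeloid markers, whose sum moved in the direction of Cd36 and Lpl, 5 had every TVA library above every DMSO library (27.3% of all genes tested). Adgre1, among these 5, did not reach the filter and was not tested. Lyz2 had 28.9 to 31.0 TPM with DMSO against 38.0 to 41.3 TPM in the TVA libraries (a log2 change of 0.38, limma adjusted p 0.00757) and was the only marker of the 8 that was called. The macrophage markers Csf1r and Adgre1 were near or below 1 TPM, at 0.64 to 0.82 and 0.26 to 0.50 TPM in the DMSO libraries and at 1.00 to 1.28 and 0.57 to 0.89 TPM with TVA. C1qa and C1qb stayed at or below 0.69 TPM. The part of myeloid cells in the rise of Cd36 and Lpl was not tested.

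The summed level of the 5 platelet markers was 66.8 to 69.1 TPM in the DMSO libraries and 55.8 to 60.2 TPM with TVA. Ppbp and Itga2b were called lower, Pf4 (the most abundant) overlapped and was not called (limma adjusted p 0.106), and Gp9 and Gp1bb were not tested. The 5 adipocyte markers summed to at most 0.15 TPM in any library, with Plin1 and Lep listed at 0. Of the 4 endothelial markers, Cdh5 was listed at 0 and Kdr and Tek did not exceed 0.34 TPM. Pecam1, which leukocytes express too, had 16.3 to 17.7 TPM with DMSO and 18.2 to 19.0 TPM with TVA, without overlap and not called (limma adjusted p 0.147). The sums for B cells (11.3 to 14.9 TPM with DMSO, 10.65 to 11.02 TPM with TVA) and dendritic cells (6.61 to 6.91 and 5.94 to 6.38 TPM) were lower in every TVA library. Most of the B cell sum was Cd79b (means of 11.1 TPM with DMSO and 9.33 TPM with TVA). Most of the dendritic cell sum was Zbtb46 (5.85 and 5.19 TPM). The other markers of these 2 lists overlapped between the groups. The sum for CD4 T cells (9.97 to 11.6 and 8.72 to 10.4 TPM) overlapped, and no marker of the B cell, dendritic cell and CD4 T cell lists was called. The NK cell sum was 21.3 to 23.9 TPM in the DMSO libraries and 32.5 to 33.1 TPM with TVA, nearly all of it Eomes, which CD8 T cells express too and which was called higher, and the red cell sum (37.9 to 61.4 TPM) overlapped between the groups, with Hbb-bt called lower.

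**Figure D5:**
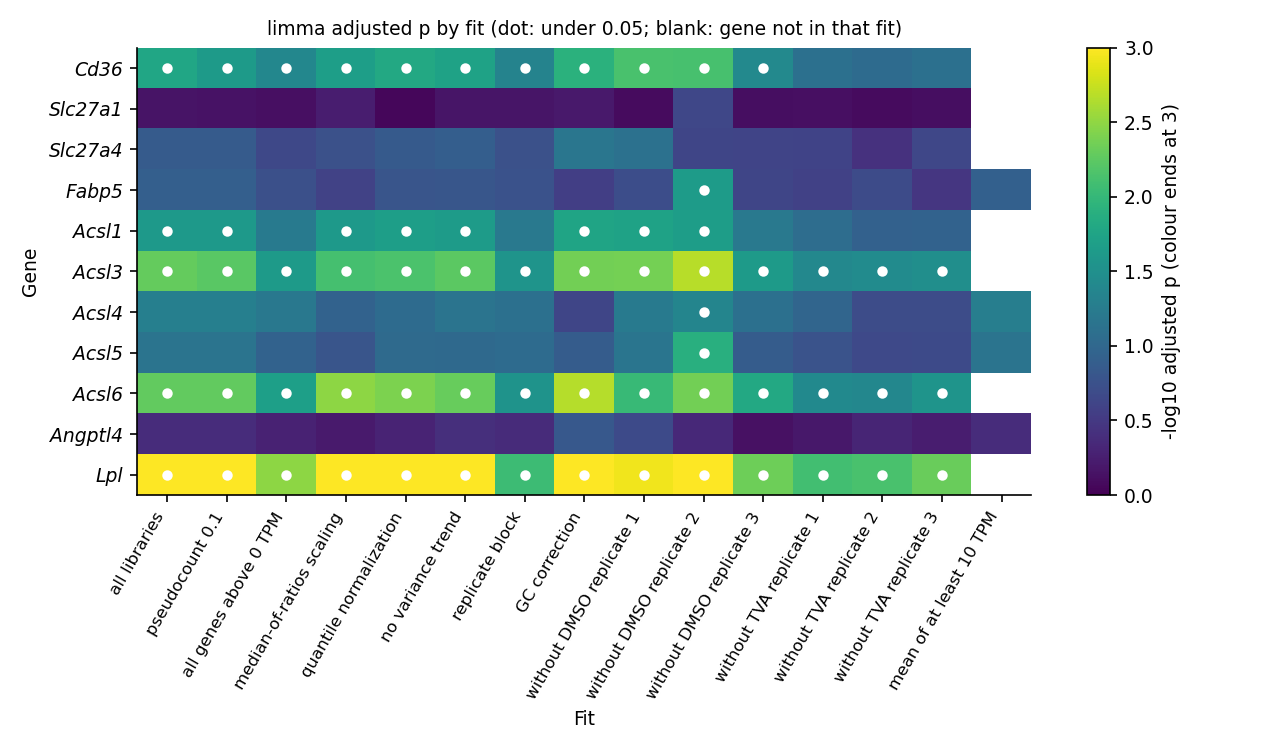
limma adjusted p of the 10 genes and of Lpl (rows) in the fit with all libraries and in 14 alternative fits (columns), as −log10 in colour, with a white dot where it was under 0.05 and a blank where the gene was not in that fit. Acsl3, Acsl6 and Lpl carry a dot in each fit that included them, Cd36 in each such fit except the 3 without a TVA library, and Slc27a1, Slc27a4 and Angptl4 in none.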

How the data were processed

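RNA-seq libraries of activated mouse CD8+ T cells (3 DMSO, 3 TVA) were prepared, per the labels, with the SMARTER mRNA-Seq kit, and columns were matched to libraries by the column name in each description. The authors deposited TPM values per gene symbol with 2 decimals. The submitters' processing notes name STAR, RSEM and the mm10 build, and the annotation is not given in the sources used here. TPM keeps no read depth, so no counting interval is given.

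Genes with at least 1 TPM in at least 3 libraries were tested with limma 3.58.1 (R 4.3.3, two-sided, variance trend, Benjamini-Hochberg over all 10866 genes, threshold 0.05) on log2(TPM + 1), without a replicate block. The fit was tested on simulated data. Members and lists were chosen with earlier results of these data known. Named are all 10 members and, of the wider list, the genes that were called or that complete a small count. Alternatives were a pseudocount of 0.1, all genes above 0 TPM, a minimum mean of 10 TPM, scaling by median of ratios, quantile normalization, no variance trend, a replicate block, a loess GC correction within libraries (span 0.5, GENCODE vM21 transcripts, 97.4% of tested genes with a value) and leaving out each library. Figures were drawn with matplotlib 3.10.9.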

Additional observations from a re-analysis of the deposited data

How the results depend on the processing

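The 4 calls among the 10 genes were 4 with a pseudocount of 0.1, median-of-ratios scaling, quantile normalization, no variance trend and GC correction, 3 with all genes above 0 TPM and 2 to 7 with a library left out. With a minimum mean of 10 TPM the count was 0, since that filter left only 4 of the 10 in the fit and none of the 4 called genes. The 5 calls of the wider list were 1 with all genes above 0 TPM, 2 with a minimum mean of 10 TPM (14 tested), 2 with scaling by median of ratios, 2 with quantile normalization, 1 with a replicate block and 1 to 8 with a library left out. Over all genes the count of 925 was 494 with all genes above 0 TPM, 608 with a minimum mean of 10 TPM and 102 to 2242 with a library left out. The replicate numbers were not treated as pairs, because the study states no pairing. As a separate check, deviations of same-numbered libraries from their group means correlated at 0.16, 0.03 and -0.08. The replicate block gave 218 calls over all genes and 3 among the 10, where Acsl1 was lost (adjusted p 0.0618). Slc27a1, which was not called, changed sign to 0.0498 after GC correction and ran from -0.152 to 0.0327 with a library left out. Where no reason is given, the cause was not tested. Over 15 named genes, 201 alternative values left direction and call as they were in 154 cases, lost the call in 42, gained it in 3 and changed sign in 2. Depth is unknown, so what it limits cannot be stated.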

Other observations

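Acbd6, a gene of the acyl-CoA binding domain family that was singled out after its values were seen, stood at 61.1, 30.9 and 51.8 TPM in the DMSO libraries (replicates 1, 2 and 3) and at 29.1, 29.2 and 28.9 TPM with TVA. DMSO replicate 2 stood close to the TVA libraries and far from the other DMSO libraries, and the log2 change of -0.65 (SE 0.21, limma adjusted p 0.0894) was not called. The thioesterase gene Acot1 had 7.85, 4.17 and 6.16 TPM in the DMSO libraries and 4.67, 3.34 and 4.08 TPM with TVA, with DMSO replicate 2 again the lowest of its group. Acot1 and Acot2 are close copies that share reads, and the split between them is uncertain.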
